A study of Mus musculus with 6 samples.

Results

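Mouse lung alveolar organoid cells were followed for the Wnt feedback genes, which Wnt signalling is known to switch on and whose products act back on the pathway. The 10 genes Sp5, Axin2, Nkd1, Nkd2, Rnf43, Znrf3, Lgr5, Lgr4, Notum and Wif1 were taken by symbol from a table of 23224 genes. All 10 had a row and all 10 passed the filter on low counts. They were compared across 3 culture conditions and between the 2 cell lines SN3593 and SN3595, each of which gave 1 library per condition, 6 libraries in all. The 2D FBS cells had grown flat for 7 days in Ad-DMEM F/12 supplemented with fetal bovine serum at 10%. In 2D FNHCS they had grown flat for 7 days in a medium called FNHCS. In 3D FNHCS, which the labels call the control, they had spent the same 7 days in matrigel drops in FNHCS. All cells carried the genotype Sftpc-eGFP, a green fluorescent protein tied to Sftpc, the surfactant gene that marks alveolar type 2 (AT2) cells, and all had been kept in FNHCS in matrigel beforehand. By their titles the 2D FBS libraries are type I, those of 2D FNHCS a mix of AT2 and AT1, and those of 3D FNHCS type II. The labels do not say what FNHCS contains, or whether these cells had been sorted on eGFP. The loss of FNHCS and the addition of serum cannot be told apart in 2D FBS, nor can flat growth and the loss of matrigel in 2D FNHCS.

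Wnt proteins bind Frizzled receptors together with the co-receptors Lrp5 and Lrp6, which protects beta-catenin from destruction and lets it act with TCF and LEF factors on target genes. Many of these targets are brakes. Axin2 rebuilds the complex that destroys beta-catenin, Nkd1 and Nkd2 bind Dishevelled, Rnf43 and Znrf3 remove Frizzled from the cell surface, Notum strips the lipid from secreted Wnt, and Wif1 binds Wnt outside the cell. Lgr4 and Lgr5 are receptors for R-spondins, which hold Rnf43 and Znrf3 in check. In the mouse lung, Wnt signalling is known to maintain AT2 cells, which make surfactant and can turn into alveolar type 1 (AT1) cells, the thin cells of gas exchange, and Axin2 marks a subset of AT2 cells.

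Promoter windows from 250 bases before to 50 bases after the transcription start were available for 7 of the 10 genes, in 8 windows, from RefSeq on build GRCm38.p6. Windows of Sp5, Axin2, Nkd1 and Lgr4 are printed because they stand for the patterns described below, a graded order (Sp5, Axin2), a step with 3D culture (Nkd1) and higher levels in 2D FBS (Lgr4). Capitals mark matches to a TCF/LEF motif, the letters CTTTG followed by AA, AT, TA or TT, searched on both strands. All are on the plus strand, at chr2:70474673-70474972 for Sp5, chr11:108920099-108920398 for Axin2, chr8:88527383-88527682 for Nkd1 and chr2:109917397-109917696 for Lgr4.
Sp5: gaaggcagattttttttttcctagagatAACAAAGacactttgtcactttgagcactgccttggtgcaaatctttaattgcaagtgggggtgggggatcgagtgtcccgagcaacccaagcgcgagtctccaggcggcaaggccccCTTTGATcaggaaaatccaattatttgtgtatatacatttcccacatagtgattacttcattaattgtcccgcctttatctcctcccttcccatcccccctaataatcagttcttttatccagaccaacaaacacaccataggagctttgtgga
Axin2: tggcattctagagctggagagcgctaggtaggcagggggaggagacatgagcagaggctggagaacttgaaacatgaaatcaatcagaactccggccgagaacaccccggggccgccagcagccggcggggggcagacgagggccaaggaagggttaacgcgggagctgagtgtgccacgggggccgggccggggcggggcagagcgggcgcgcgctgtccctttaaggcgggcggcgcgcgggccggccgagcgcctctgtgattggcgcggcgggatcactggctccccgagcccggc
Nkd1: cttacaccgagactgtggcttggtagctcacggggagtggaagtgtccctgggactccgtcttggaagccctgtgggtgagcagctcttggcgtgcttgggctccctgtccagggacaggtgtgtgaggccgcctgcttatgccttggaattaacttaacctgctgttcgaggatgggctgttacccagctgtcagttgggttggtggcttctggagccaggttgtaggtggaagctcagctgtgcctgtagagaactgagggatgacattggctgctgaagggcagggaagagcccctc
Lgr4: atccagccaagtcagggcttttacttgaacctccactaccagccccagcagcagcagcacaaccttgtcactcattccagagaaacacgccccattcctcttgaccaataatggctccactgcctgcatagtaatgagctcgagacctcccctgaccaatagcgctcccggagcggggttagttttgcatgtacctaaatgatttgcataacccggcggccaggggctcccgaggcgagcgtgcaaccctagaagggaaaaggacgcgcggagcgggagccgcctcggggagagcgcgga
The Sp5 window held 2 matches, CTTTGTT on the minus strand and CTTTGAT on the plus strand. Their leftmost bases as printed are at positions -222 and -104, counted from the start site. The other 7 windows, of Axin2, Nkd1, Nkd2, Rnf43 (2 windows), Lgr4 and Wif1, held none. Of all 32851 RefSeq promoter windows of this length, 16.9% held at least 1 match and 1.94% held at least 2. The shorter core CTTTG, which every 7-base match contains, occurred 5 times in the Sp5 window and 1 time in that of Wif1, and 53.9% of all windows held it. A match is only a run of letters, and these windows do not cover distant elements.

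Total expected counts per library, the read numbers estimated for all genes, ranged from 33634368 to 43334665. Levels are given as CPM, the count scaled to the library's total with TMM factors, and are compared between libraries but not between genes, since they are not corrected for gene length. A gene without reads in a library is given a level of 0. Only lower bounds of its fold differences used a floor of 3 counts, or 0.0704 to 0.0864 CPM. The summed level of 10 AT2 markers was 977 and 1386 CPM in 2D FBS, against 55237 and 46484 CPM in 2D FNHCS and 51627 and 69035 CPM in 3D FNHCS (SN3593 and SN3595 in each pair of values). Sftpc alone gave 438 and 264 CPM in 2D FBS, 51435 and 40987 CPM in 2D FNHCS and 33502 and 41014 CPM in 3D FNHCS. The other 9 AT2 markers summed to 539 and 1122 CPM in 2D FBS, 3802 and 5497 CPM in 2D FNHCS and 18125 and 28021 CPM in 3D FNHCS, so that apart from Sftpc the AT2 sum was lower in 2D FNHCS than in 3D FNHCS as well. That of 10 AT1 markers was 24696 and 24757 CPM in 2D FBS, against 5600.5 and 13352 CPM in 2D FNHCS and 2949 and 2603 CPM in 3D FNHCS. The order of the AT1 sums and of the AT2 sums without Sftpc followed the type labels of the titles. The 2D FNHCS library of SN3595 stood apart from that of SN3593 with more AT1 marker RNA and more of the mesothelial marker Msln (6.91 CPM in SN3593 and 307 CPM in SN3595). Summed levels reached at most 16.3 CPM for 10 fibroblast, 1.90 CPM for 10 endothelial and 53.2 CPM for 10 airway markers. The fibroblast sum was 16.3 and 12.8 CPM in 2D FBS, against 1.48 and 1.36 CPM in 2D FNHCS and 0.662 and 0.567 CPM in 3D FNHCS. In 2D FBS it was nearly all Mfap5 (15.3 and 11.3 CPM), with 8 of the 10 genes under 1 CPM. The gastrointestinal sum of 13717 to 14223 CPM in 3D FNHCS was nearly all Lyz1, with 6 of the 9 genes under 1 CPM. Of its intestinal genes, Cdx2 was at 0 in every library. Olfm4 was at 4.61 and 5.42 CPM in 3D FNHCS, against 0.544 and 0.845 CPM in 2D FNHCS and 0.0287 and 0.0760 CPM in 2D FBS. Vil1 was also highest in 3D FNHCS, at 0.634 and 1.08 CPM. The sum of 7 mesothelial markers, nearly all Msln, was 560.0 and 2143 CPM in 2D FBS, against 7.09 and 307 CPM in 2D FNHCS and 4.95 and 12.3 CPM in 3D FNHCS, with 5 of the 7 under 1 CPM in 2D FBS. Leukocyte marker sums of 15.8 to 27.9 CPM in 2D FBS, 81.1 to 165 CPM in 2D FNHCS and 229 to 1800 CPM in 3D FNHCS came mainly from Lyz2 and Cd14. Csf1r went the other way, with 2.27 and 8.05 CPM in 2D FBS, 0.570 and 2.28 CPM in 2D FNHCS and 0.0864 and 0 CPM in 3D FNHCS. Of 6 leukocyte markers tested in 2D FBS against 3D FNHCS, 3 fell and 1 rose at an adjusted p below 0.05, beside 20.5% and 19.9% of all genes. Whether the shift between AT2 and AT1 markers plays a part in the Wnt results was not tested.

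**Figure D1:**
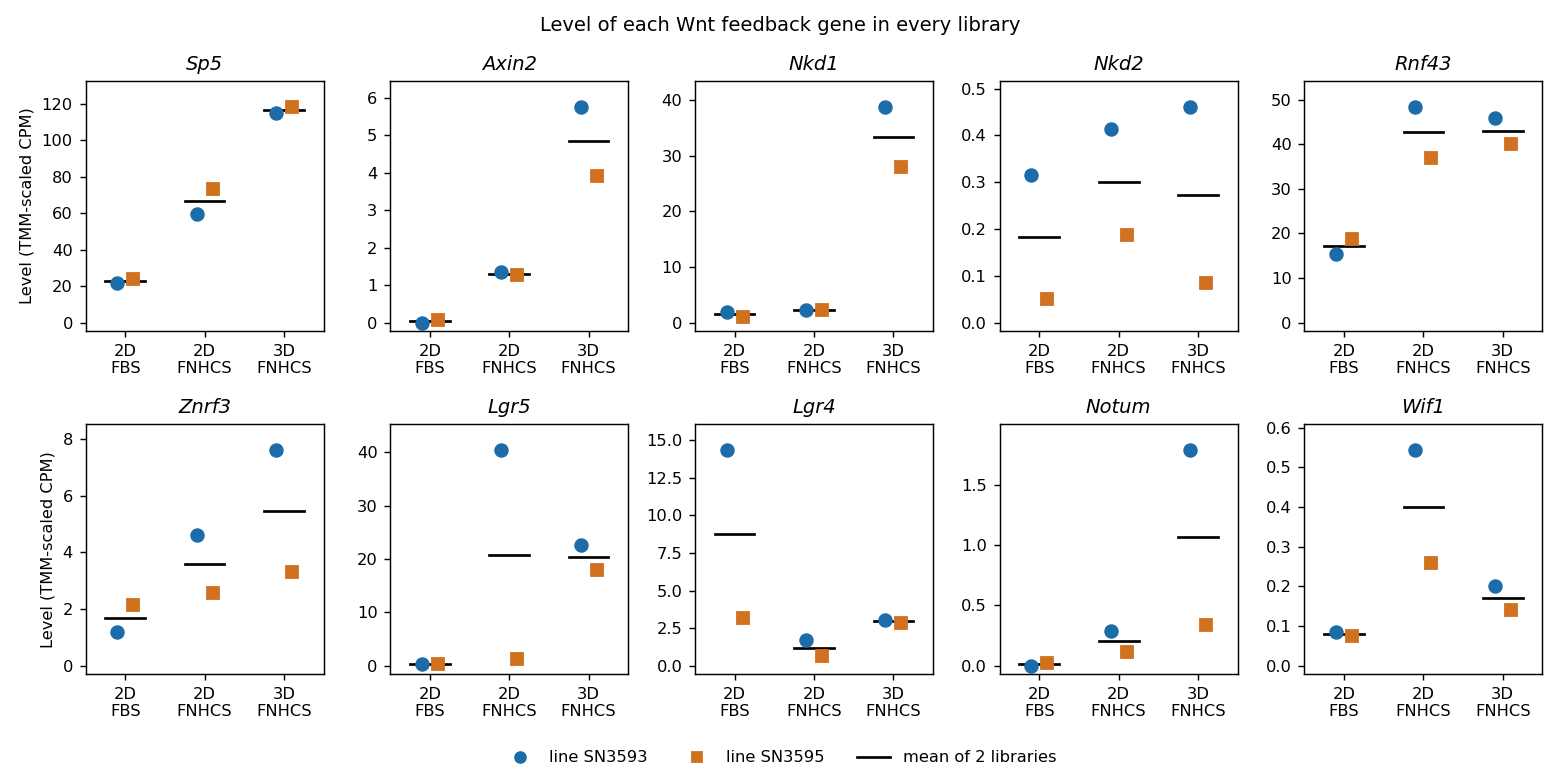
Level of each gene in every library in TMM-scaled CPM, on a scale of its own per gene; circles are line SN3593, squares line SN3595 and bars the mean of both. Sp5 and Axin2 are lowest in 2D FBS at the left and highest in 3D FNHCS at the right, Nkd1 is high only in 3D FNHCS, Rnf43 is low only in 2D FBS, and Lgr5 differs 33.1-fold between the lines in 2D FNHCS.

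Most of these genes had their lowest levels in 2D FBS. Against 3D FNHCS, 6 of the 10 fell in 2D FBS (Sp5, Axin2, Nkd1, Rnf43, Lgr5 and Notum) and none rose at an adjusted p below 0.05. Over all 14416 genes tested in that comparison, 20.5% fell and 19.9% rose. Axin2 and Notum had passed the filter without a 2D FBS library, and Wif1 only through its 2D FNHCS libraries. Against 2D FNHCS, 3 fell in 2D FBS (Sp5, Axin2 and Rnf43) and none rose, against 4.77% of all genes that fell and 5.85% that rose. Between 2D FNHCS and 3D FNHCS, 2 were lower in 2D FNHCS (Sp5 and Nkd1) and none rose, against 9.77% of all genes that fell and 8.63% that rose. The medians of the 10 log2 fold changes were -2.03, -1.43 and -0.71 in the same order of comparisons, beside -0.03, -0.06 and 0.03 over all genes tested. All tests were edgeR's quasi-likelihood test with Benjamini-Hochberg adjustment over all genes, and the 3 comparisons share libraries. In bulk RNA, fewer cells of a type and less RNA per cell cannot be told apart.

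Libraries of the compared conditions did not overlap for 9 of the 10 genes in 2D FBS against 3D FNHCS, where 75% of all genes tested did not overlap. The exception was Nkd2. Of the 9, Lgr4 was higher in 2D FBS, by only 3.19 against 3.05 CPM in the closest libraries, and the others were lower. Wif1 was apart by few counts, 3 in each 2D FBS library against 7 and 5 in 3D FNHCS. Libraries did not overlap for 9 genes in 2D FBS against 2D FNHCS, again all but Nkd2 and again with Lgr4 higher, beside 59.8% of all genes. For 2D FNHCS and 3D FNHCS they did not overlap for 6 genes, beside 63.7% of all genes, which is close to the share over the whole table.

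Sp5, a zinc finger transcription factor of the Sp family whose gene is a direct target of beta-catenin, gave a graded order. Its level was 21.6 and 23.8 CPM in 2D FBS, against 59.6 and 73.5 CPM in 2D FNHCS and 115 and 118 CPM in 3D FNHCS, in SN3593 and SN3595. Every 2D FBS library lay below every 2D FNHCS library, which lay below every 3D FNHCS library, and the lines differed by at most 1.23-fold within a condition. The group means were 22.7 ± 1.55 CPM in 2D FBS, 66.6 ± 9.81 CPM in 2D FNHCS and 117 ± 2.25 CPM in 3D FNHCS (SD, n = 2 each). Sp5 was thus 5.13-fold lower in 2D FBS than in 3D FNHCS (log2 fold change -2.36 ± 0.18 SE, adjusted p = 0.000926) and 2.93-fold lower than in 2D FNHCS (-1.55 ± 0.17, adjusted p = 0.0106). The second of these calls was lost without the 2D FBS library of SN3593 (adjusted p = 0.0766). The step in 2D FNHCS against 3D FNHCS was 1.75-fold (-0.81 ± 0.17, adjusted p = 0.0263). That last call was kept without the 2D FNHCS library of SN3595 and lost without any of the other 5 libraries (adjusted p between 0.0508 and 0.110), with log2 fold changes between -0.97 and -0.67 throughout. Its promoter window is the one with 2 TCF/LEF matches.

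Axin2, the scaffold of the beta-catenin destruction complex and a widely used readout of Wnt signalling, followed the same order at lower counts. It had 0 and 3 counts in 2D FBS, against 52 and 54 counts in 2D FNHCS and 200 and 138 counts in 3D FNHCS. The levels were 0 and 0.0760 CPM in 2D FBS, against 1.35 and 1.27 CPM in 2D FNHCS and 5.76 and 3.91 CPM in 3D FNHCS. No libraries of different conditions overlapped, and the 2D FBS libraries were at or near the floor. Taken over both lines, the level in 2D FBS was 120-fold lower than in 3D FNHCS (95% counting interval 40.6 to 583) and 32.3-fold lower than in 2D FNHCS (10.8 to 159). In SN3593, with 0 counts in 2D FBS, it was at least 66.8-fold lower than in 3D FNHCS and at least 15.6-fold lower than in 2D FNHCS, at the floor of 3 counts per library. Axin2 fell in 2D FBS against 3D FNHCS (fitted log2 fold change -6.81 ± 0.86 SE, adjusted p = 0.00262) and against 2D FNHCS (-4.92 ± 0.85, adjusted p = 0.0236). Without 1 library the first fitted value ranged from -10.5 to -5.93 and the second from -8.60 to -4.05, each lowest where the 2D FBS library left had 0 counts. The first call was kept without each library, and the second was lost when SN3593 was left out of 2D FNHCS (adjusted p = 0.0576) or of 2D FBS (0.0772). For 2D FNHCS against 3D FNHCS the difference was -1.89 ± 0.61 with adjusted p = 0.0808. It was past the threshold with DESeq2 (adjusted p = 0.00136), with limma-voom (0.0394) and without either 2D FBS library (0.0461 and 0.0474), and not when a library of 2D FNHCS or 3D FNHCS was left out (0.164 to 0.293).

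Nkd1, an inhibitor that binds Dishevelled, separated 3D FNHCS from both flat cultures. Its level was 1.90 and 1.06 CPM in 2D FBS, against 2.28 and 2.32 CPM in 2D FNHCS and 38.8 and 28.0 CPM in 3D FNHCS. The flat cultures lay between 1.06 and 2.32 CPM, and both 3D FNHCS libraries were more than 10 times as high as any of them. Nkd1 was 14.5-fold lower in 2D FNHCS than in 3D FNHCS (log2 fold change -3.86 ± 0.36 SE, adjusted p = 0.0044), and the fall was 17.0-fold in SN3593 and 12.0-fold in SN3595. It was 22.5-fold lower in 2D FBS than in 3D FNHCS (-4.50 ± 0.37, adjusted p = 0.00107). Both calls were kept without each of the 6 libraries in turn. Between 2D FBS and 2D FNHCS the difference was -0.64 ± 0.34 with adjusted p = 0.261. Its relative Nkd2 was read at 13.0 to 23.8 expected counts per condition, with 0.316 and 0.0506 CPM in 2D FBS, against 0.414 and 0.188 CPM in 2D FNHCS and 0.461 and 0.0851 CPM in 3D FNHCS. All conditions overlapped for Nkd2, and no comparison of conditions was called (adjusted p between 0.689 and 0.941). SN3593 was the higher line in each condition, and Nkd2 passed the filter only through SN3593 libraries.

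Rnf43, a ubiquitin ligase that takes Frizzled off the cell surface, separated 2D FBS from both FNHCS cultures. Its level was 15.5 and 18.8 CPM in 2D FBS, against 48.4 and 37.1 CPM in 2D FNHCS and 45.8 and 40.2 CPM in 3D FNHCS. The FNHCS cultures overlapped, and every 2D FBS library lay below all 4 of them. Rnf43 fell 2.51-fold in 2D FBS against 3D FNHCS (log2 fold change -1.32 ± 0.21 SE, adjusted p = 0.00487) and 2.49-fold against 2D FNHCS (-1.32 ± 0.21, adjusted p = 0.0195). The call against 3D FNHCS was kept without each of the 6 libraries. The call against 2D FNHCS was lost when SN3593 was left out of 2D FNHCS (adjusted p = 0.0622) or of 2D FBS (0.115), or SN3595 out of 2D FBS (0.0672). Between 2D FNHCS and 3D FNHCS the difference was -0.01 ± 0.20 (adjusted p = 0.979), with a sign that turns under other scalings. The related ligase Znrf3 had 1.21 and 2.15 CPM in 2D FBS, against 4.61 and 2.56 CPM in 2D FNHCS and 7.6 and 3.32 CPM in 3D FNHCS. Its 2D FBS libraries were the lowest, but the lines differed 2.29-fold in 3D FNHCS. Its difference of -1.70 ± 0.57 in 2D FBS against 3D FNHCS was not called (adjusted p = 0.0562). It was past the threshold with DESeq2 (0.0171), with no filter on low counts (0.0475) and when SN3595 was left out of 3D FNHCS (-2.17, adjusted p = 0.0480). When SN3593 was left out it was -0.98 (adjusted p = 0.288) for 3D FNHCS and -1.34 (0.220) for 2D FBS, and without the 2D FBS library of SN3595 it was -2.18 (0.0956).

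**Figure D2:**
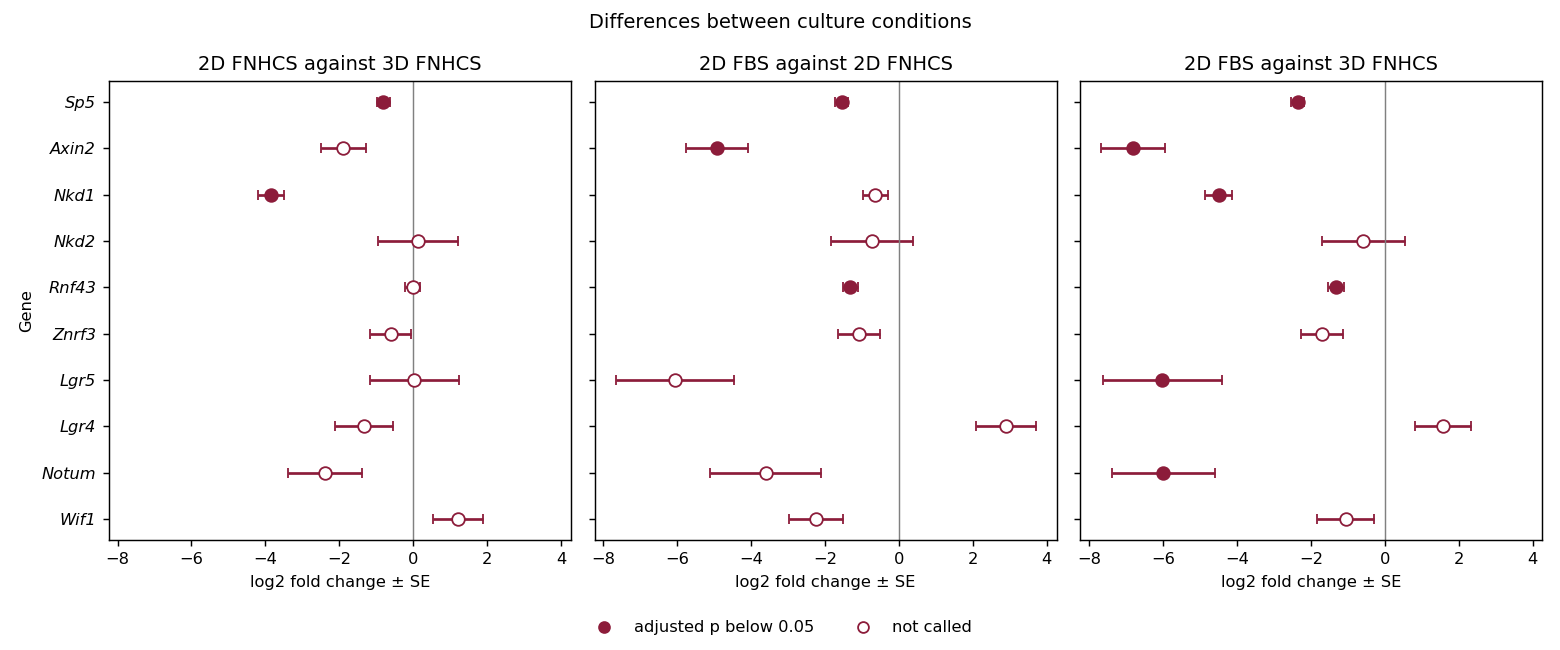
Log2 fold change of each gene with its standard error (SE) in the 3 comparisons of conditions, from the edgeR fit over all 6 libraries; filled points are called at an adjusted p below 0.05. Called genes lie left of 0, lower in the condition named first, in each panel; Lgr4 lies right of 0 in both comparisons of 2D FBS without being called.

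Lgr5, an R-spondin receptor known as a stem cell marker of the intestine, was lowest in 2D FBS and split by line in 2D FNHCS. Its level was 0.259 and 0.354 CPM in 2D FBS, against 40.4 and 1.22 CPM in 2D FNHCS and 22.7 and 18 CPM in 3D FNHCS. The highest of the 6 libraries and the lowest outside 2D FBS were thus both from 2D FNHCS, 33.1-fold apart. In 3D FNHCS the lines differed 1.26-fold with SN3593 higher, and in 2D FBS 1.37-fold with SN3595 higher. Lgr5 fell in 2D FBS against 3D FNHCS (log2 fold change -6.03 ± 1.61 SE, adjusted p = 0.0272), 87.7-fold in SN3593 and 50.6-fold in SN3595. That call was lost without any of the 4 libraries compared (adjusted p between 0.0631 and 0.131) and with limma-voom (0.129). Against 2D FNHCS the difference of -6.06 ± 1.61 in 2D FBS had adjusted p = 0.065, and it was past the threshold with DESeq2 (0.00104) and with no filter (0.0381). The size of that difference turned on the line kept in 2D FNHCS. Without SN3595 there it was -7.02 with adjusted p = 0.00519, and without SN3593 there it was -1.97 with adjusted p = 0.0592. For 2D FNHCS against 3D FNHCS the fit gave 0.03 ± 1.21 (adjusted p = 0.987), while the log2 ratio was 0.83 in SN3593 and -3.88 in SN3595. Without the 2D FNHCS library of SN3593 it was -4.05 with adjusted p = 0.00878. The 2D FNHCS library of SN3595, low in Lgr5, is the one with more AT1 marker RNA and Msln, and the part of this in the result was not tested.

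Lgr4, the broadly expressed R-spondin receptor, was the member with positive log2 fold changes in both comparisons of 2D FBS. Its level was 14.3 and 3.19 CPM in 2D FBS, against 1.71 and 0.657 CPM in 2D FNHCS and 3.05 and 2.86 CPM in 3D FNHCS. The 2D FBS libraries were the 2 highest of the 6, by a wide margin in SN3593 and a small one in SN3595, and those of 2D FNHCS were the lowest. Against 2D FNHCS the difference was 2.89 ± 0.81 on the log2 scale with adjusted p = 0.0734, or 8.39-fold in SN3593 and 4.86-fold in SN3595. With the line as a block it was 2.75 with adjusted p = 0.0311, and it was also past the threshold with DESeq2 (0.00178) and with no filter (0.0499). Without 1 library it ranged from 1.43, when SN3593 was left out of 2D FBS, to 3.73, with adjusted p between 0.0516 and 0.298. Against 3D FNHCS the difference was 1.56 ± 0.76 (adjusted p = 0.149), 4.70-fold in SN3593 and 1.11-fold in SN3595. Without the 2D FBS library of SN3595 it was 2.27 with adjusted p = 0.047, and without that of SN3593 it was 0.109 with adjusted p = 0.919. Between 2D FNHCS and 3D FNHCS it was -1.32 ± 0.78 (adjusted p = 0.272).

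The secreted inhibitors were read at low counts. Notum, the enzyme that removes the lipid from Wnt, had 0 and 1 counts in 2D FBS, against 11 and 5 counts in 2D FNHCS and 62 and 12 counts in 3D FNHCS. The levels were 0 and 0.0253 CPM in 2D FBS, against 0.285 and 0.117 CPM in 2D FNHCS and 1.79 and 0.340 CPM in 3D FNHCS. The conditions did not overlap, although the lines differed 5.25-fold in 3D FNHCS. Over both lines the level in 2D FBS was 78.6-fold lower than in 3D FNHCS (95% counting interval 13.7 to 3144) and 14.6-fold lower than in 2D FNHCS (2.27 to 614). The fall of Notum, which passed the filter without a 2D FBS library, was called against 3D FNHCS (fitted log2 fold change -6.0 ± 1.39 SE, adjusted p = 0.0171). It was lost when SN3593 was left out of 3D FNHCS (-4.37, adjusted p = 0.0746) or of 2D FBS (-5.22, 0.0878), or SN3595 out of 2D FBS (-8.32, 0.0658). Against 2D FNHCS the adjusted p was 0.172, and in 2D FNHCS against 3D FNHCS the difference was -2.39 ± 1.0 with adjusted p = 0.142. Without the 3D FNHCS library of SN3593 that difference was -0.76 (adjusted p = 0.683), and over the 6 libraries left out in turn it reached -3.14. Wif1, which binds Wnt proteins outside the cell, had 0.0862 and 0.0760 CPM in 2D FBS, 3 counts in each library, against 0.544 and 0.258 CPM in 2D FNHCS and 0.202 and 0.142 CPM in 3D FNHCS. Here the flat FNHCS cultures were the highest, and Wif1 passed the filter only through them. No comparison was called at 6 to 32 counts per condition (adjusted p between 0.102 and 0.317).

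The genes therefore fell into several orders across the conditions. Sp5, Axin2 and Notum were lowest in 2D FBS and highest in 3D FNHCS with no overlap at either step, but the step between 2D FNHCS and 3D FNHCS was not called for Axin2, and neither of these steps was called for Notum. Nkd1 changed at the step between flat and 3D culture and Rnf43 at the step between the media, with the other step not called in either gene. Across the 6 libraries, the Pearson correlation of log2(CPM + 0.1) was 0.989 between Axin2 and Sp5, 0.933 between Axin2 and Rnf43, 0.592 between Nkd1 and Rnf43 and -0.546 between Axin2 and Lgr4. These values describe libraries that share conditions and lines.

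None of the 10 genes was called between the lines, SN3593 against SN3595, in a fit with condition as a further term with edgeR or limma-voom. DESeq2 called none of the 8 to which it gave an adjusted p, and it gave none to Nkd2 and Wif1. Of all genes tested, edgeR called 0.00694% (1 gene), limma-voom called 1 gene and DESeq2 748 genes. The unadjusted p of edgeR was below 0.05 for 2 of the 10, Nkd2 and Lgr4, and for 18.6% of all genes tested, which is close to that share. Nkd2 was higher in SN3593 in 3 of 3 conditions, by 6.24-fold in 2D FBS, 2.21-fold in 2D FNHCS and 5.42-fold in 3D FNHCS (log2 fold change 1.89 ± 0.53 SE, adjusted p = 0.195). However, Nkd2 passed the filter only through libraries of SN3593, so its direction between the lines was partly set by that selection. Lgr4 was also higher in SN3593 in 3 of 3 conditions, by 4.49-fold, 2.60-fold and 1.07-fold in the same conditions (1.23 ± 0.45, adjusted p = 0.248). The log2 fold change was positive for 9 of the 10 genes and for 48.4% of all genes tested, with a median of 0.58 beside -0.01 over all genes, and Sp5 was the exception at -0.16 ± 0.11 (adjusted p = 0.465). These directions were not uniform. In 2D FBS, Axin2, Lgr5, Notum, Rnf43 and Znrf3 were lower in SN3593, at 0 to 3 counts for Axin2 and Notum. Without 1 library the sign turned for Axin2 (-0.29 to 0.34) and Rnf43 (-0.0430 to 0.288).

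**Figure D3:**
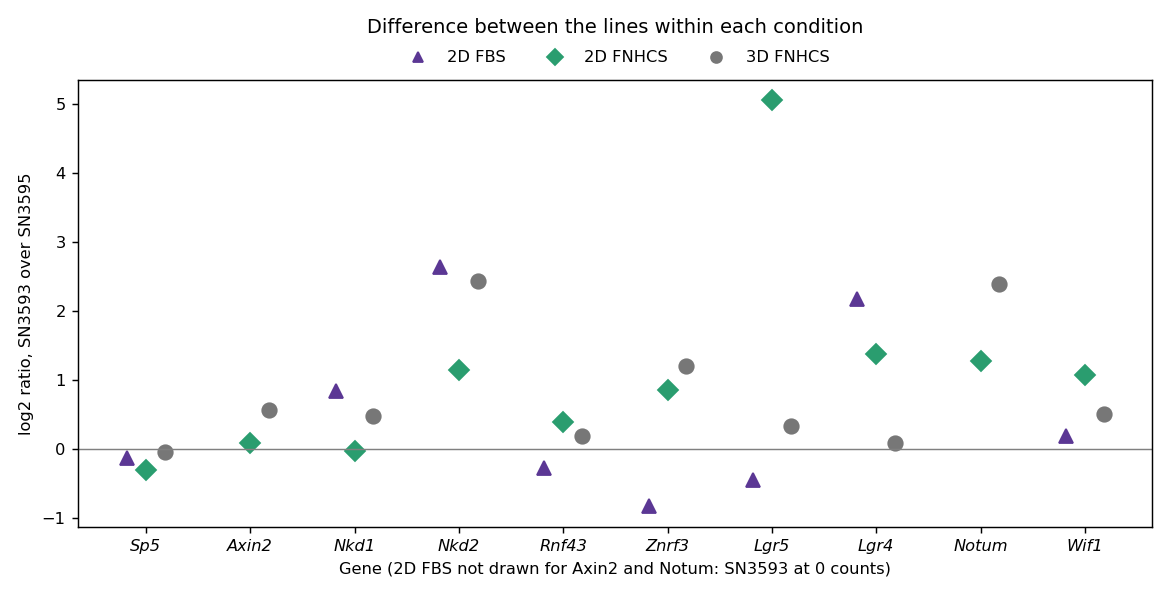
Log2 ratio of SN3593 over SN3595 for each gene, with triangles for 2D FBS, diamonds for 2D FNHCS and circles for 3D FNHCS; 1 library per point, so the points carry no error. Lgr5 in 2D FNHCS stands at 5.05, above every other point, and Sp5 lies near 0 in all 3 conditions.

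Several Wnt ligand genes were higher in the flat cultures than in 3D FNHCS. Of 19 ligands 12 could be tested. Against 3D FNHCS, 7 rose and none fell in 2D FBS, and 4 rose and none fell in 2D FNHCS. Of all genes tested, 19.9% rose in 2D FBS and 8.63% in 2D FNHCS. Wnt1, Wnt3a, Wnt6, Wnt10a and Wnt10b had 0 to 3 counts per library in 3D FNHCS and passed the filter only through flat libraries. They could hardly be called lower, and the medians below include them. Wnt3a, Wnt10a and Wnt10b are among those that rose in 2D FBS, and Wnt6 in 2D FNHCS. No ligand was called between 2D FBS and 2D FNHCS. The median log2 fold change against 3D FNHCS was 5.20 in 2D FBS and 3.65 in 2D FNHCS, or 2.48 and 3.15 with the 3 ligands at 0 in 3D FNHCS set to their bounds. For 2D FBS against 2D FNHCS it was 0.16. The medians over all genes given above were all within 0.1 of 0. Wnt9a, for example, had 70.0 and 52.3 CPM in 2D FBS, against 23.8 and 27.5 CPM in 2D FNHCS and 2.79 and 1.36 CPM in 3D FNHCS. It rose in 2D FBS against 3D FNHCS by 4.88 ± 0.39 on the log2 scale (adjusted p = 0.00106) and in 2D FNHCS against 3D FNHCS by 3.62 ± 0.37 (0.00526). Wnt7a had 86.8 and 155 CPM in 2D FBS, against 98.4 and 156 CPM in 2D FNHCS and 14.8 and 11.5 CPM in 3D FNHCS. No flat library overlapped a 3D library for either ligand. Wnt7a rose by 3.20 ± 0.38 in 2D FBS (adjusted p = 0.00225) and by 3.27 ± 0.38 in 2D FNHCS (0.00695), each against 3D FNHCS. Wnt11, known mainly for signalling without beta-catenin, rose by 5.53 ± 0.64 in 2D FBS (adjusted p = 0.00216) and by 6.13 ± 0.66 in 2D FNHCS (0.006). Wnt10a was at 4.28 and 1.95 CPM in 2D FBS with 1 count in all in 3D FNHCS, 213-fold higher (95% counting interval 37.8 to 8446; adjusted p = 0.0067). Wnt6, at 0 in both 3D FNHCS libraries, had 1.22 and 0.188 CPM in 2D FNHCS, at least 8.19-fold more (adjusted p = 0.0479). Wls, which carries Wnt proteins to the cell surface, rose by 1.63 ± 0.24 in 2D FBS (adjusted p = 0.00385) and by 0.96 ± 0.23 in 2D FNHCS (0.0391) against 3D FNHCS. The other gene of its list that could be tested, Porcn, was not called, and the 4 R-spondin genes did not pass the filter.

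Among the receptors, members moved both ways. Of 17 listed, 14 could be tested, and 4 rose and 4 fell in 2D FBS against 3D FNHCS, 1 rose in 2D FBS against 2D FNHCS, and 3 rose and 3 fell in 2D FNHCS against 3D FNHCS. The medians were 0.16, -0.20 and 0.21 in that order. Of all genes tested, 19.9%, 5.85% and 8.63% rose and 20.5%, 4.77% and 9.77% fell, in the same order. Fzd9, among the 4 that fell in 2D FBS, passed the filter without a 2D FBS library. Against 3D FNHCS, Fzd2 rose by 1.96 ± 0.27 on the log2 scale in 2D FBS (adjusted p = 0.0033) and by 1.73 ± 0.27 in 2D FNHCS (0.0125). Fzd7 fell in 2D FBS (-2.53 ± 0.31, adjusted p = 0.00237) and in 2D FNHCS (-1.63 ± 0.30, 0.018), and so did the co-receptor gene Lrp5 (-1.35 ± 0.21, 0.00501, and -1.32 ± 0.21, 0.0137). Fzd6 rose in 2D FBS (0.86 ± 0.16, adjusted p = 0.00879) and in 2D FNHCS (0.72 ± 0.16, 0.0303). Fzd3 rose in 2D FBS (0.95 ± 0.20, adjusted p = 0.0132) and in 2D FNHCS (1.45 ± 0.20, 0.00995). The receptor tyrosine kinase-like Ror1 had 11.4 and 12.0 CPM in 2D FBS, against 1.40 and 1.13 CPM in 2D FNHCS and 5.79 and 2.64 CPM in 3D FNHCS, and was the receptor called in 2D FBS against 2D FNHCS (3.21 ± 0.45, adjusted p = 0.0153). Of 14 further secreted or surface inhibitors, 3 could be tested. Sfrp4, which binds Wnt outside the cell, rose by 2.38 ± 0.45 in 2D FBS against 3D FNHCS (adjusted p = 0.00858) and by 2.57 ± 0.45 against 2D FNHCS (0.0243). Kremen1, a receptor of the Dkk inhibitors, rose by 1.32 ± 0.27 in 2D FBS against 3D FNHCS (adjusted p = 0.012). None of the 3 was called in 2D FNHCS against 3D FNHCS. The list's medians were 1.32, 0.61 and 0.20 in the order used for the receptors.

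The 17 genes of cytoplasmic transduction were all tested, and few were called. Against 3D FNHCS, 1 rose and 2 fell in 2D FBS (median 0.29) and 1 rose in 2D FNHCS (median 0.08). Against 2D FNHCS, 1 fell in 2D FBS (median 0.01). Of all genes tested, 19.9% rose and 20.5% fell in 2D FBS against 3D FNHCS. The shares were 8.63% and 9.77% in 2D FNHCS against 3D FNHCS, and 5.85% and 4.77% in 2D FBS against 2D FNHCS. Ctnnb1, the gene of beta-catenin, was the one that rose, by 1.11 ± 0.21 in 2D FBS (adjusted p = 0.00856) and by 1.03 ± 0.21 in 2D FNHCS (0.0232) against 3D FNHCS. Its messenger RNA level does not measure the protein, whose stability the pathway controls. Dvl2, a Dishevelled gene, fell in 2D FBS against 3D FNHCS (-1.10 ± 0.16, adjusted p = 0.00388) and against 2D FNHCS (-0.85 ± 0.16, 0.0286). Amer1, an Apc partner listed under its older symbol, fell in 2D FBS against 3D FNHCS (-0.95 ± 0.18, adjusted p = 0.00825). Of 13 nuclear effectors, all tested, 2 rose and 5 fell in 2D FBS against 3D FNHCS (median -1.20), and 2 fell against 2D FNHCS (median -0.73). In 2D FNHCS 1 rose against 3D FNHCS (median -0.64). That was Ctnnbip1, an inhibitor of beta-catenin in the nucleus (1.16 ± 0.23, adjusted p = 0.0233), which also rose in 2D FBS against 3D FNHCS (0.86 ± 0.23, 0.0288). Tcf7, a TCF factor that is itself a Wnt target in several tissues, had 0.144 and 0.0760 CPM in 2D FBS, against 2.80 and 0.634 CPM in 2D FNHCS and 4.06 and 2.24 CPM in 3D FNHCS. It passed the filter without a 2D FBS library. It fell in 2D FBS against 3D FNHCS (-4.82 ± 0.94, adjusted p = 0.0097) and against 2D FNHCS (-3.94 ± 0.92, 0.0476). The corepressor gene Tle2 fell in both of these comparisons (-2.39 ± 0.28, adjusted p = 0.00219, and -1.56 ± 0.27, 0.0245). Tcf7l1 (-2.20 ± 0.35, adjusted p = 0.00487) and the corepressor gene Tle1 (-1.20 ± 0.20, 0.00619) fell in 2D FBS against 3D FNHCS.

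**Figure D4:**
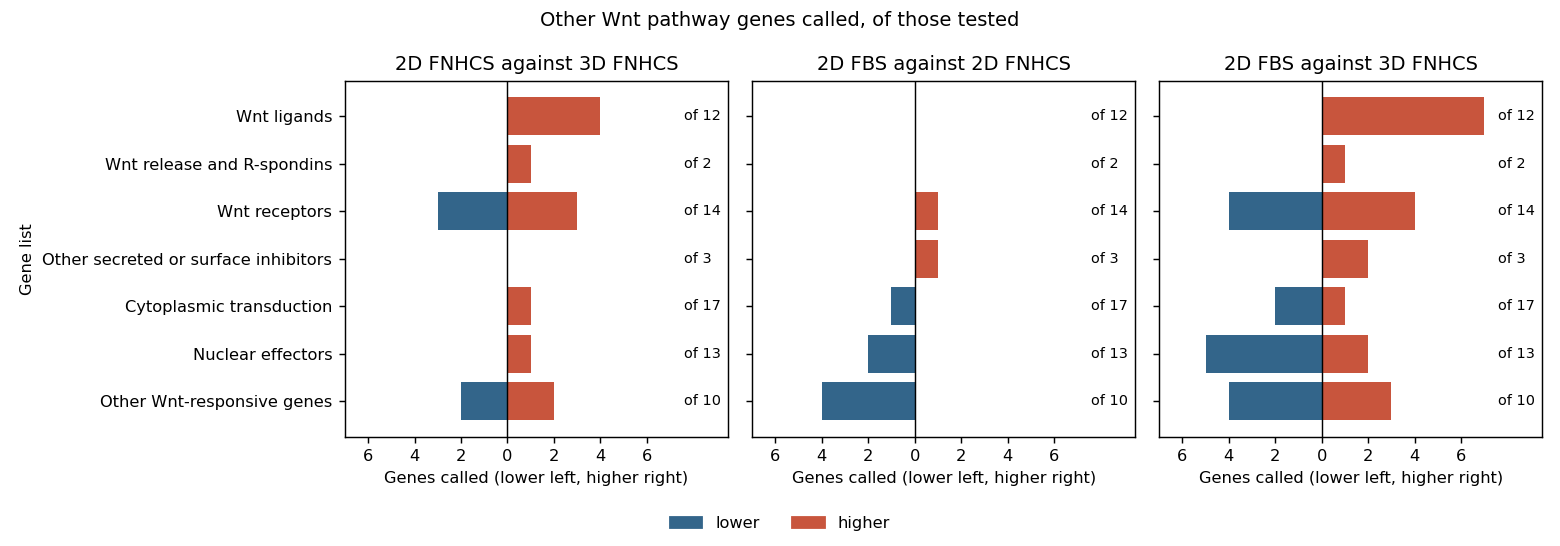
Number of other Wnt pathway genes called lower (left of 0) or higher (right of 0) in each list and comparison; the text at the right of each bar gives the number tested. Among the ligands 7 of 12 were higher in 2D FBS and 4 of 12 in 2D FNHCS, each against 3D FNHCS, and none was lower. Some of these ligands passed the filter only through flat libraries.

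Of 13 further genes reported to respond to Wnt in other tissues, 10 could be tested. Against 3D FNHCS, 3 rose and 4 fell in 2D FBS (median -0.45), and 2 rose and 2 fell in 2D FNHCS (median -0.47). Against 2D FNHCS, 4 fell in 2D FBS (median -0.82). The shares of all genes that rose and fell were 19.9% and 20.5% in 2D FBS against 3D FNHCS. They were 8.63% and 9.77% in 2D FNHCS against 3D FNHCS, and 5.85% and 4.77% in 2D FBS against 2D FNHCS. Ascl2, a transcription factor of intestinal stem cells, had 1 count in each 2D FBS library, against 0.673 and 0.235 CPM in 2D FNHCS and 5.64 and 4.25 CPM in 3D FNHCS. It passed the filter without a 2D FBS library. It was 184-fold lower in 2D FBS than in 3D FNHCS (95% counting interval 50.5 to 1522; adjusted p = 0.00181) and 16.5-fold lower than in 2D FNHCS (4.24 to 141; 0.0368), and it fell in 2D FNHCS against 3D FNHCS (-3.44 ± 0.59, 0.0158). Bmp4, a ligand of the BMP pathway, fell in 2D FBS against 3D FNHCS (-4.19 ± 0.41, adjusted p = 0.0015) and against 2D FNHCS (-1.76 ± 0.37, 0.038), and in 2D FNHCS against 3D FNHCS (-2.42 ± 0.38, 0.0125). The receptor gene Ephb2 fell in 2D FBS against 3D FNHCS (-2.67 ± 0.44, adjusted p = 0.00552) and against 2D FNHCS (-1.99 ± 0.43, 0.0394). The cell cycle gene Ccnd1 fell in 2D FBS against 3D FNHCS (-1.49 ± 0.25, adjusted p = 0.00591) and against 2D FNHCS (-1.49 ± 0.25, 0.0225). Lbh, a transcription cofactor gene, rose in 2D FBS against 3D FNHCS (5.92 ± 0.64, adjusted p = 0.0018) and in 2D FNHCS against 3D FNHCS (4.32 ± 0.61, 0.0101). Its level was 26.5 and 10.4 CPM in 2D FBS, against 4.40 and 7.74 CPM in 2D FNHCS and 0.317 and 0.284 CPM in 3D FNHCS. The cyclin gene Ccnd2 rose in the same comparisons (3.78 ± 0.75, adjusted p = 0.0101, and 5.34 ± 0.80, 0.0112). The receptor gene Ephb3 rose in 2D FBS against 3D FNHCS (1.44 ± 0.39, adjusted p = 0.029). Beside these lists, 9 of the 10 AT2 markers fell and 7 of the 10 AT1 markers rose in 2D FBS against 3D FNHCS. In 2D FNHCS, 6 AT2 markers fell against 3D FNHCS (median of the 10 at -1.78), among them Sftpa1 (-3.28 ± 0.42, adjusted p = 0.00864), and 3 AT1 markers rose. In 2D FBS, 6 AT2 markers fell and 1 AT1 marker rose against 2D FNHCS.

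High correlations were not limited to genes of the pathway. Candidates were the 8979 tested genes whose mean reached 10 CPM in some condition. Those with the highest Pearson correlation with Axin2 over the 6 libraries, on the log2(CPM + 0.1) scale, were C2cd4b (0.998), Hmgb1 (0.997), Zfp60 (0.997), Echdc2 (0.995) and Vamp1 (0.994). C2cd4b had 0.0862 and 0.228 CPM in 2D FBS, against 8.23 and 5.73 CPM in 2D FNHCS and 60.4 and 39.2 CPM in 3D FNHCS. The genes most like Sp5 were Rgl3, Rnf144a and Ppp1r14c (0.998 to 0.999), those most like Nkd1 were Slc25a28, Dlg3 and Il33 (0.997 to 0.998), and those most like Rnf43 were Fam134a, Zfp866 and Slc12a2 (0.991 to 0.998). For Lgr5 they were Glmn, Cand2 and Dyrk3 (0.987 to 0.991), and for Lgr4 they were l7Rn6, Wdfy1 and Bag2 (0.979 to 0.981). Those for Notum were Nop56, Prmt5 and Bcas2 (0.984 to 0.992), for Znrf3 Anp32a, Parn and Prmt3 (0.976 to 0.986), for Wif1 Bbs9, Ormdl1 and Fut8 (0.978 to 0.985) and for Nkd2 Fam98b, Phf5a and Bex1 (0.944 to 0.972). With 6 libraries in 3 conditions, 1 common step between conditions is enough for a high value.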

How the data were processed

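PolyA RNA was purified with RNeasy columns and turned into libraries by NEB Ultra II kits, per the labels' protocols. The deposited values are expected counts for each gene, which are estimates and can be fractional. Build mm9, Bowtie 1.2.3 and RSEM 1.3.1 are named in the submitters' processing notes. Annotation, options and strand setting were not given in the sources used here. Expected counts share reads between close relatives by a model. Coordinates are given for RefSeq promoter windows only, which are on another build.

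Expected counts were rounded and tested with edgeR 4.0.16 (R 4.3.3), using TMM factors, the default filter (14416 genes kept, 8808 left out) and the quasi-likelihood test with 1 term per condition over all 6 libraries, which left 3 residual degrees of freedom. Genes were called at a Benjamini-Hochberg adjusted p below 0.05. Lines were compared with condition as a further term. SE was computed as the size of the log2 fold change over the root of its F statistic. Intervals (exact, 95%) and floors cover counting error only. The alternatives were RLE or library-size scaling, DESeq2 1.42.0, limma-voom (limma 3.58.1), no filter, each library left out, and the line as a replicate block.

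Replicate numbers mark cell lines, so the same lines recur in every condition. Deviations of same-line libraries from their condition means correlated at 0.422 between 3D FNHCS and 2D FNHCS, 0.245 between 3D FNHCS and 2D FBS and 0.380 between 2D FNHCS and 2D FBS. Whether the lines are from separate animals is not stated; p-values measure only the spread between these libraries, which may in part be technical. Libraries of a condition differed by far more than sampling noise (chi-square per degree of freedom 144 to 185).

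The members and lists were chosen with earlier results of these data known. Called genes of each pathway list are named if among the 4 with the lowest adjusted p in a comparison. Ccnd2 and Ephb3 in 2D FBS against 3D FNHCS were added to complete a count, and some named genes are given with their further calls. The genes most like a member are the 5 (Axin2) or 3 (others) with the highest correlation, predicted genes excluded. A fold against 0 counts is a lower bound at the floor, and against 1 to 3 counts a ratio with its interval.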

Additional observations from a re-analysis of the deposited data

Results flagged for a closer look

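For 3 genes the lines moved in opposite directions in 2D FNHCS against 3D FNHCS, and with 1 library per line and condition the difference between the lines was not tested. The log2 ratio of Lgr5 was 0.83 in SN3593 and -3.88 in SN3595, a difference of 4.71. That of Nkd2 was -0.15 in SN3593 and 1.14 in SN3595, a difference of -1.29, and rests on few counts. That of Rnf43 was 0.08 in SN3593 and -0.12 in SN3595, a difference of 0.197.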

How the results depend on the processing

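Every alternative named in the methods was run. With all libraries, 2 to 3 members were called in 2D FNHCS against 3D FNHCS. Comparing 2D FBS, 3 to 5 members were called against 2D FNHCS (5 with DESeq2 and with no filter) and 5 to 7 members against 3D FNHCS. The line as a replicate block pairs libraries of 1 line: it gave 2 members in 2D FNHCS against 3D FNHCS, 4 in 2D FBS against 2D FNHCS (Lgr4, log2 fold change 2.75, was added) and 6 in 2D FBS against 3D FNHCS, and changed no other call of a member. Genes called in 2D FNHCS against 3D FNHCS numbered 2652, and 4210 with DESeq2 and 4181 with the block. In 2D FBS against 2D FNHCS they numbered 1531, and 3147 with DESeq2 and 2700 with the block. In 2D FBS against 3D FNHCS they numbered 5836. Between the lines 1 gene was called, and 0 with library-size scaling, 748 with DESeq2 and 73 with no filter. With library-size scaling, the median over all genes became 0.19 for 2D FNHCS against 3D FNHCS, with 1885 higher and 1137 lower calls (1244 and 1408 with TMM). For 2D FBS against 2D FNHCS it became -0.33, with 625 higher and 1474 lower calls (843 and 688 with TMM), and for 2D FBS against 3D FNHCS to -0.14. Leaving out 1 library gave 1 to 2 members and 565 to 1869 genes in 2D FNHCS against 3D FNHCS. It gave 0 to 4 members and 62 to 1292 genes in 2D FBS against 2D FNHCS, 4 to 6 members and 3281 to 6000 genes in 2D FBS against 3D FNHCS, and 0 of either between the lines. No member was called in 2D FBS against 2D FNHCS without the 2D FBS library of SN3593. In fits that leave 1 library in a condition, that library is assumed to vary like the others. Depth limits Axin2, Nkd2, Notum and Wif1 in 2D FBS, where each had 13.0 expected counts or fewer over both libraries.

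The sign turned in 2D FNHCS against 3D FNHCS for Rnf43 (0.0035 with RLE scaling, 0.156 with library-size scaling, 0.00344 with DESeq2) and for Lgr5 (-1.60 with limma-voom, -0.0337 with no filter, -0.94 with the block). Without 1 library, signs turned in 2D FNHCS against 3D FNHCS for Lgr5 (range -4.05 to 0.99), Nkd2 (-0.62 to 1.78), Rnf43 (-0.21 to 0.17) and Znrf3 (-1.09 to 0.11). They also turned for Nkd2 in 2D FBS against 2D FNHCS (-2.49 to 0.0916) and against 3D FNHCS (-2.35 to 1.05), and between the lines for Axin2 (-0.29 to 0.34) and Rnf43 (-0.0430 to 0.288). The cause was not tested. Of 230 values per member and comparison under the alternatives with all libraries, 211 kept their direction and side of the threshold, 9 calls were gained, 1 was lost, 6 signs turned and 3 had no adjusted p with DESeq2. Of 240 without 1 library, 203 kept both, 5 calls were gained, 18 were lost and 14 signs turned.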
